A study of Mus musculus with 5 samples.

Results

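The 10 heat-shock genes Hspa1a, Hspa1b, Hspa8, Hsp90aa1, Hsp90ab1, Hsph1, Dnajb1, Hspb1, Bag3 and Hsf1 were examined in 3 lists of chromatin immunoprecipitation sequencing (ChIP-seq) peaks from mouse embryonic stem cells (mESCs). They are 10 of the 21938 protein-coding genes of the GENCODE M21 annotation, chosen by name. The rule held no measured value, although earlier results of these data were known when the genes were chosen. A peak was counted for a gene when its summit, the position of strongest signal, lay in the gene body or within 5 kb of it. By this rule the genes held 61 peaks in the REX1 list (96050 in all), 49 in that of RNF12 WT (97602 in all) and 31 in that of RNF12 H569A,C572A (98124 in all).

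RNF12, also named RLIM, is an E3 ubiquitin ligase that marks the transcription factor REX1 for destruction by the proteasome, and RNF12 H569A,C572A (below, the mutant) is an altered form without catalytic activity, changed in the RING domain. All cells were female mESCs of the 129/Sv-Cast/Ei strain, and every library was labelled with a V5 antibody. The REX1 library came from WT cells with FLAG-V5-REX1. The study describes REX1 ChIP-seq as earlier work and only the RNF12 ChIP-seq as its own. A difference between the REX1 and RNF12 lists thus cannot be told apart from one between experiments. The RNF12 libraries came from Rlim+/- cells, which keep an intact Rlim allele, with FLAG-V5-RNF12 WT, or its H569A,C572A form, expressed from a pCAG vector and thus not from the Rlim promoter. The labels also give 2 control libraries of WT cells, titled as inputs but labelled with the V5 antibody, which were not analysed here.

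Cells of the RNF12 experiments, their WT controls included, received 15 μM of the proteasome inhibitor MG132 for 3 h and were cross-linked with 2 mM DSG and 1% formaldehyde. The protocol describes this for RNF12 only, and whether the REX1 cells received MG132 is not given in the sources used here. No list from untreated RNF12 cells was analysed here, so an effect of MG132 cannot be told apart from the level these genes have without it. Each list is 1 library, so no test between lists was possible. Fold enrichment is the height of a peak over the local background, as the peak caller gave it. It is set against other peaks of its own list only, as a percentile, since the control used for each list and the depth of each library are not known. Peaks carry no RNA level, so neither expression of these genes nor stem cell markers could be checked.

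Proteasome inhibition lets damaged and unfolded proteins accumulate and is a classical trigger of the heat-shock response. In that response the transcription factor HSF1 forms trimers and binds heat-shock elements, runs of alternating GAA and TTC units, in the promoters of chaperone genes. The chaperones HSP70 and HSP90 refold proteins with the help of HSP110, HSP40 and BAG proteins, while small heat-shock proteins hold unfolded proteins in solution.

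Every one of the 10 genes had a peak in each list. This share is to be read against 78.4% of protein-coding genes with a REX1 peak, 79.2% with an RNF12 WT peak and 80.7% with a mutant peak. All 10 also had a peak within 1 kb of a transcription start site (TSS) of their own in each list, against 66.9%, 68.3% and 67.2% of protein-coding genes for REX1, RNF12 WT and the mutant. A promoter peak in all 3 lists was thus found for 10 of 10 heat-shock genes and for 60.2% of all protein-coding genes.

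The promoter peaks of the heat-shock genes spread widely in height. The median percentile of the highest promoter peak per gene was 89.6 for REX1 (95% interval 46.7 to 95.02), 74.1 for RNF12 WT (45.1 to 97.7) and 90.5 for the mutant (80.2 to 97.3, n = 10 genes each). Over all protein-coding genes with a promoter peak the medians were 77.5, 81.0 and 79.8. Hspa1a and Hspa1b share most of their sequence and are not independent. Without them the medians were 90.3 (46.4 to 98.2), 78.9 (9.24 to 98.9) and 88.6 (71.1 to 97.4, n = 8 genes), and every interval held the value of all genes. In the top 10% of its list stood the highest promoter peak of 4 of 10 genes for REX1, against 18.7% of all genes, of 4 for RNF12 WT, against 23.3%, and of 6 for the mutant, against 14.4%. These shares of all genes count genes without a promoter peak, although every heat-shock gene had one. Among genes with a promoter peak, 4113 of 14679 stood in the top 10% for REX1, 5110 of 14993 for RNF12 WT and 3153 of 14742 for the mutant. Without Hspa1a and Hspa1b the mutant count was 4 of 8.

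**Figure D1:**
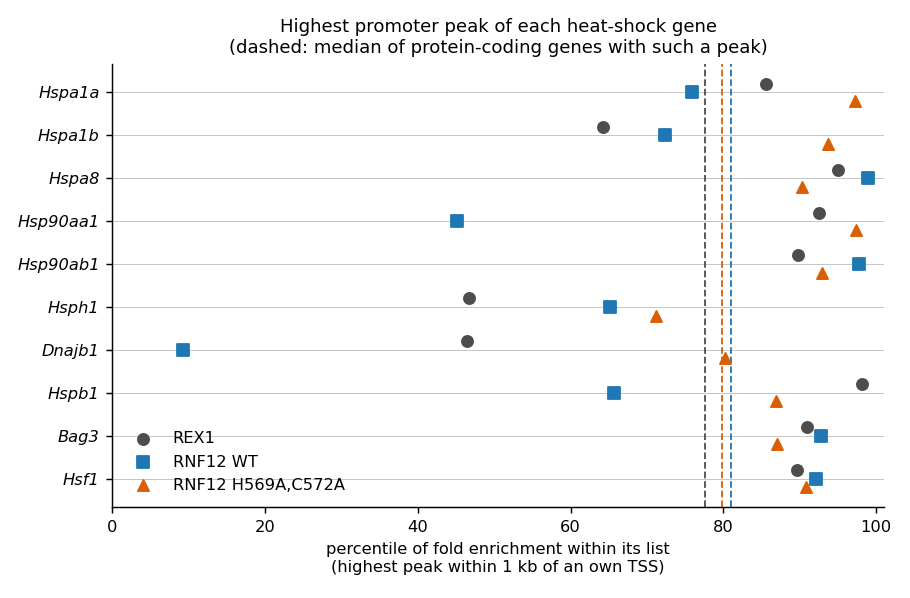
Percentile of fold enrichment within its list (x axis) of the highest peak within 1 kb of an own TSS, for each heat-shock gene (y axis) and list (symbols), with dashed lines at the medians of protein-coding genes that have such a peak. Hsf1 lies between 89.6 and 92.1 in all 3 lists, whereas Dnajb1 runs from 9.24 for RNF12 WT to 80.2 for the mutant.

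Hspa1a and Hspa1b encode the stress-inducible cytosolic HSP70 proteins. They are intronless neighbours on the minus strand of chromosome 17 (GRCm38/mm10), Hspa1a at 34969190 to 34972156 and Hspa1b at 34956436 to 34959238. In the mutant list each gene was covered by 1 broad peak. That at Hspa1a was 2264 bp wide with a fold enrichment of 23.4 (percentile 97.3), and that at Hspa1b was 2265 bp wide with 18.2 (percentile 93.6). Both summits lay inside the coding sequence, 831 bp and 832 bp from the start of the gene. The same stretch of sequence stood under both. It is shown because reads of this length cannot place it on either gene, with the central 36 bases, the read length of the RNF12 libraries, in capitals (minus strand, chr17:34971295-34971354 for Hspa1a and chr17:34958376-34958435 for Hspa1b).

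Hspa1a: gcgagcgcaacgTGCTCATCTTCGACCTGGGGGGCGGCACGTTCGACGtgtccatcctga
Hspa1b: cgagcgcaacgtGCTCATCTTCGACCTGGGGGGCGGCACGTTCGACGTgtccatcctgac

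The windows are shifted by 1 base and share 59 of 60 bases. Along the coding sequence the genes were identical at 1915 of 1923 aligned bases (99.6%), and 64.2% of the 36-base words of Hspa1a and 66.8% of those of Hspa1b occurred more than once in the genome. Peaks at Hspa1a and Hspa1b therefore cannot be told apart where such words lie, and the 2 genes are not independent observations.

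REX1 also covered Hspa1a with a single broad peak, 2189 bp wide with a fold enrichment of 6.49 (percentile 85.6) and its summit 255 bp inside the gene. Hspa1b had a REX1 peak of 1648 bp with 5.01 (percentile 64.2) and a second of 449 bp with 3.77 (percentile 25.1). In the RNF12 WT list the same stretch was broken into 4 peaks in each gene, from 137 to 1161 bp wide at Hspa1a and from 146 to 781 bp at Hspa1b. The highest of the RNF12 WT peaks within 1 kb of the start had a percentile of 75.9 at Hspa1a and 72.3 at Hspa1b. The share of the body under peaks was 71.8% (REX1), 61.8% (RNF12 WT) and 72.8% (mutant) for Hspa1a and 72.7%, 52.1% and 76.99% for Hspa1b. Few genes were covered this far, since at least 50% of the body lay under peaks in 0.693%, 0.506% and 1.10% of protein-coding genes, and the median gene had 1.13%, 1.10% and 1.23%. Both genes are short, at 2967 and 2803 bp, against a median body of 17425 bp. The plot of peak extents shows that the peaks span the coding sequence and stop near its end in all 3 lists.

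**Figure D2:**
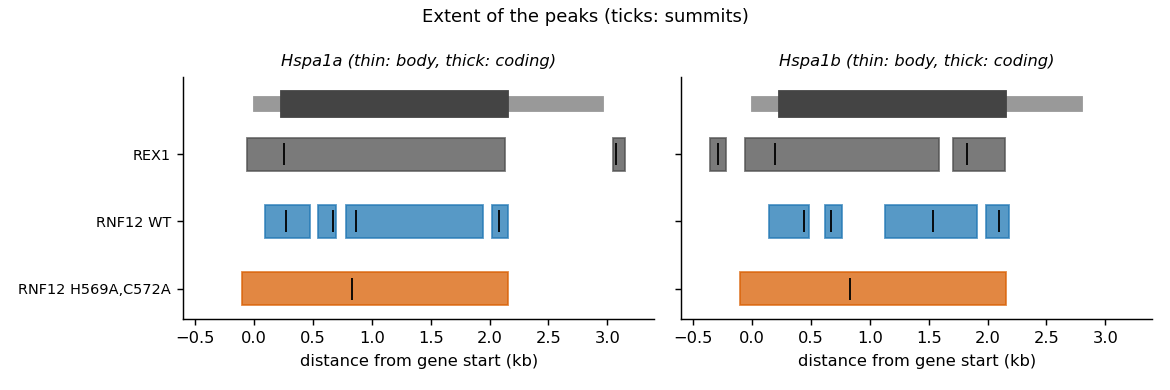
Extent of the peaks (bars, summits as ticks) of the 3 lists along Hspa1a and Hspa1b, as distance from the gene start in kb, with the gene body thin and the coding sequence thick. The mutant peaks are unbroken over 2264 and 2265 bp, while each gene carries 4 RNF12 WT peaks.

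The mutant peak reached 105 bp upstream of Hspa1a, and these bases, with the same stretch before Hspa1b, are shown because they are the promoter bases under the mutant peaks. A pair of heat-shock units, GAANNTTC or TTCNNGAA on either strand, is in capitals (minus strand, chr17:34972157-34972261 for Hspa1a and chr17:34959239-34959343 for Hspa1b). The windows were identical at 104 of 105 bases.

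Hspa1a: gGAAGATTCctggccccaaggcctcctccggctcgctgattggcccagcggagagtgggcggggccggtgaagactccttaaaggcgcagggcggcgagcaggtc
Hspa1b: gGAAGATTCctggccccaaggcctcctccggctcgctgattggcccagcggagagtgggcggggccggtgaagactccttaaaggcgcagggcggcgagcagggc

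This upstream pair lay inside the mutant peak at both genes and outside the REX1 and RNF12 WT peaks. Another such pair lay within 50 bp of the REX1 summit at both genes, and none lay that near to an RNF12 WT or mutant summit. Of the remaining peaks near Hspa1a, a site 3638 to 3780 bp from the gene start, beyond its end, held a peak of all 3 lists. Its percentile was 86.9 for RNF12 WT, the highest RNF12 WT value at this gene, but 9.02 for REX1 and 7.61 for the mutant. A further site upstream, in an exon of the neighbouring HSP70 gene Hspa1l, held a REX1 peak (percentile 5.21) and a mutant peak (68.5).

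Hspa8 encodes the constitutive HSP70 protein HSC70 and lies on the plus strand of chromosome 9 at 40800984 to 40810087. It had 7 REX1, 6 RNF12 WT and 4 mutant peaks, of which 5, 4 and 4 were within 1 kb of a TSS. Its highest peak had a fold enrichment of 8.84 for REX1 (percentile 95.02), 9.28 for RNF12 WT (98.9) and 15.8 for the mutant (90.3). These values were in the top 10% of all 3 lists. The summits did not fall together, since the REX1 summit was 228 bp upstream of the nearest TSS, the mutant summit 25 bp upstream and the RNF12 WT summit 45 bp downstream of another TSS of the gene. At the site of the highest REX1 and mutant peaks the RNF12 WT peak was 668 bp wide but low (3.98, percentile 28.6). A peak of RNF12 WT alone, beyond the end of the gene, had a percentile of 97.0.

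Hsp90aa1 encodes the stress-inducible HSP90 alpha and lies on the minus strand of chromosome 12 at 110690605 to 110702728. The 3 lists met at a single site, 110695636 to 110696951, beside internal start sites of the gene and over 5 kb from its outermost start. The mutant peak there was 1044 bp wide with a fold enrichment of 23.5 (percentile 97.4), the highest of all mutant peaks at the heat-shock genes. The REX1 peak was 1316 bp wide with 7.88 (percentile 92.6). RNF12 WT had 3 short peaks of 120 to 397 bp, the highest with 4.50 (percentile 45.1). Chromosome 12 held 2289 RNF12 WT peaks, against 4546 to 7445 on the other chromosomes with a heat-shock gene, while it held 5892 REX1 peaks (4102 to 6732 on the others) and 4303 mutant peaks (3973 to 6819). The part of that low count in the RNF12 WT values at Hsp90aa1 was not tested. Near the outermost TSS at 110702728 lay 3 REX1 peaks within 1 kb, with percentiles of 2.46 to 38.6, and no peak of either RNF12 list.

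Hsp90ab1 encodes the constitutive HSP90 beta and lies on the minus strand of chromosome 17 at 45567775 to 45573271. It had more peaks than any other heat-shock gene in each list, with 16 for REX1, 9 for RNF12 WT and 6 for the mutant. In every list these counts include peaks beyond its end, in exons of the neighbouring Slc35b2. Its highest peak had a fold enrichment of 7.20 for REX1 (percentile 89.7), 8.23 for RNF12 WT (97.7) and 17.5 for the mutant (92.8). The summits lay 64 bp downstream, 213 bp upstream and 331 bp upstream of a TSS of the gene. A site shared by all lists at 45563789 to 45564409 was beyond the end of Hsp90ab1 and beside the TSS of the neighbouring Slc35b2. Peaks with the nearest protein-coding TSS in another gene made up 10 of 61, 6 of 49 and 5 of 31 of the peaks at the heat-shock genes.

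Hsph1 encodes the HSP110 protein that exchanges nucleotides on HSP70, and lies on the minus strand of chromosome 5 at 149614287 to 149636376. Its highest promoter peak had a fold enrichment of 4.39 for REX1 (percentile 46.7), 5.17 for RNF12 WT (65.1) and 9.43 for the mutant (71.1). All were below the medians of protein-coding genes with a promoter peak. The summits lay 37, 60 and 51 bp downstream of a TSS.

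Dnajb1 encodes an HSP40 protein that passes clients to HSP70, and lies on the plus strand of chromosome 8 at 83608193 to 83612653. A broad peak at its start was shared by the 3 lists, with widths of 821 bp (REX1), 752 bp (RNF12 WT) and 866 bp (mutant). The fold enrichment was 4.36 (percentile 46.4), 3.08 (9.24) and 11.6 (80.2). By the highest promoter peak of each gene, no heat-shock gene was lower for RNF12 WT or had a wider range over the lists, at 71.0 percentile points. Beside this, only REX1 had another peak, of 117 bp, at Dnajb1.

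Hspb1 encodes a small heat-shock protein that holds unfolded clients without ATP, and lies on the plus strand of chromosome 5 at 135887919 to 135889563. Its REX1 promoter peak was the highest REX1 peak at any heat-shock gene, with a fold enrichment of 11.8 (percentile 98.2) and a summit 209 bp upstream. The promoter peak had 5.18 (65.7) for RNF12 WT and 13.99 (86.8) for the mutant, with summits 90 and 137 bp downstream, in the coding sequence. REX1 peaks covered 84.6% of the 1645 bp body, against 39.3% for RNF12 WT and 45.8% for the mutant. Of the 36-base words of Hspb1, 37.5% occurred more than once in the genome, including those under both RNF12 promoter summits and not that under the REX1 promoter summit.

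Bag3 encodes a BAG co-chaperone that links HSP70 to autophagy, and lies on the plus strand of chromosome 7 at 128523616 to 128546981. The highest peak lay in an intron in all 3 lists, 518 bp (REX1), 519 bp (RNF12 WT) and 664 bp (mutant) from the TSS. Its fold enrichment was 7.47 (percentile 91.0), 6.96 (92.8) and 14.1 (87.0). A second shared site just upstream of the TSS was of middle height, with percentiles of 43.1 for REX1 and 44.1 for RNF12 WT and 51.003 for the mutant.

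Hsf1 encodes the master transcription factor of the heat-shock response, and lies on the plus strand of chromosome 15 at 76477422 to 76501913. At its start the summits of the 3 lists lay close together. They were 1 bp downstream (REX1), 31 bp downstream (RNF12 WT) and 6 bp upstream (mutant) of a TSS, with fold enrichments of 7.16 (percentile 89.6), 6.84 (92.1) and 16.01 (90.8). Its range of percentiles over the lists, 2.51 points, was the narrowest of the 10 genes. The bases at this start, shown because all 3 summits lie within 50 bp of them, hold the YY1 string AAGATGGC and, overlapping it, a string of REX1 (plus strand, chr15:76477447-76477476, REX1 string in capitals).

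Hsf1: ccggtcgcaagATGGCTGCggccatgcgag

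**Figure D3:**
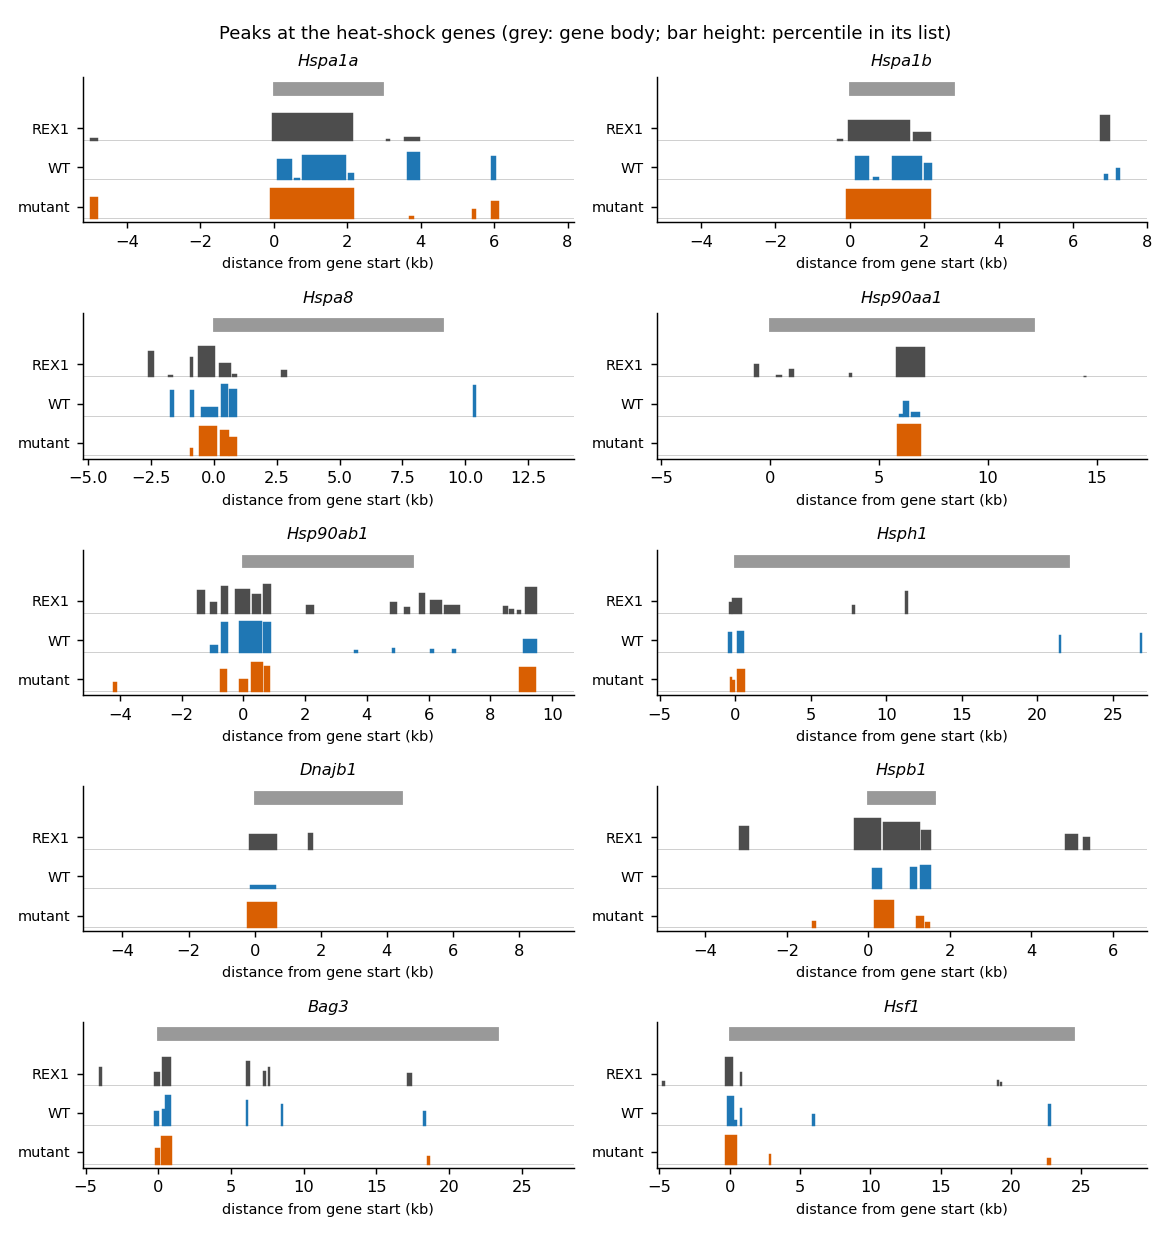
Peaks of the 3 lists at each heat-shock gene, with distance from the gene start in kb on the x axis and the height of each bar as its percentile within its list. Peaks of all 3 lists stand at or near the start of each gene except Hsp90aa1, where they meet over 5 kb inside the gene.

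Among the peaks of each list, those at the heat-shock genes were of middle height by fold enrichment and had a larger median width. The median percentile was 43.1 for REX1 (95% interval 34.5 to 57.8, n = 61), 60.5 for RNF12 WT (43.2 to 66.6, n = 49) and 57.0 for the mutant (34.2 to 79.1, n = 31). Peaks at protein-coding genes had medians of 49.3, 52.6 and 48.6, inside each interval. Ranked by −log10 q instead, the medians were 60.01, 68.9 and 58.6, against 50.4, 51.9 and 46.4, so REX1 went from below to above the value of protein-coding genes. The median width was 198, 185 and 206 bp, against 166, 131 and 152 bp at protein-coding genes. Peaks within 1 kb of an own TSS had a higher median percentile than those farther away, 46.6 (n = 26) against 37.7 (n = 35) for REX1, 64.3 (n = 28) against 54.0 (n = 21) for RNF12 WT and 78.7 (n = 20) against 28.6 (n = 11) for the mutant. Peaks of a gene share a locus and a library, so these differences were not tested.

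**Figure D4:**
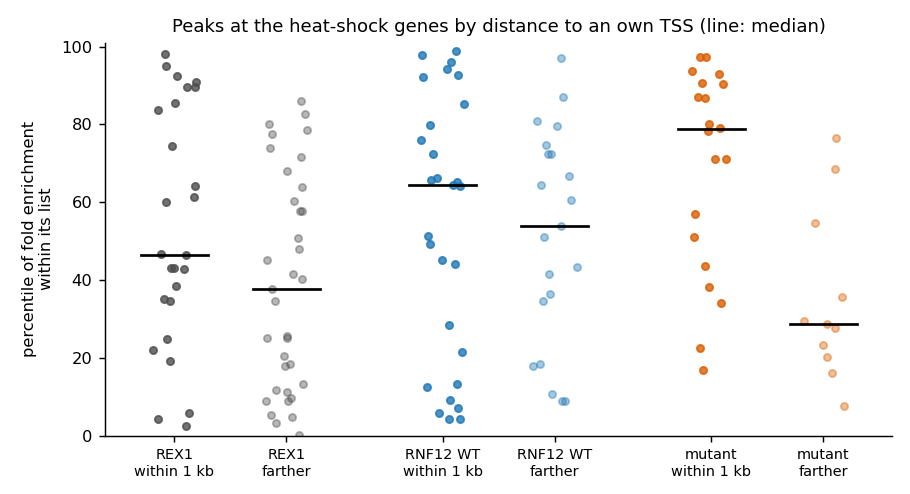
Percentile of fold enrichment within its list (y axis) of each peak at the heat-shock genes, split by list and by distance to an own TSS (x axis), with the median as a line. The medians within 1 kb and farther are 78.7 and 28.6 for the mutant and lie closer together for REX1, at 46.6 and 37.7.

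Per kb of gene and flank the heat-shock genes held 0.292 REX1, 0.235 RNF12 WT and 0.149 mutant peaks, against 0.0658, 0.0711 and 0.0563 over protein-coding genes. Their median body was 7300 bp. Exons took up 21.8% of the bases searched at the heat-shock genes and 8.10% of those at all protein-coding genes. Exonic summits accounted for 45.9% of REX1 (Wilson 95% interval 34.0 to 58.3), 53.1% of RNF12 WT (39.4 to 66.3) and 48.4% of mutant peaks (31.97 to 65.2). Over all protein-coding genes they accounted for 33.7%, 40.4% and 37.3%. The part of gene length and exon share in these counts was not tested.

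The share of RNF12 peaks at the heat-shock genes that overlapped a REX1 peak depended on the rule for overlap. Of 49 RNF12 WT peaks 38 overlapped a REX1 peak by at least 1 bp (77.6%, Wilson interval 64.1 to 87.0), against 43.7% over protein-coding genes. Of 31 mutant peaks 24 did so (77.4%, 60.2 to 88.6), against 43.4%. When overlap had to cover 50% of both peaks the shares were 36.7% for RNF12 WT (24.7 to 50.7), against 21.3%, and 58.1% for the mutant (40.8 to 73.6), against 20.9%. With summits within 100 bp they were 42.9% (30.02 to 56.7), against 29.2%, and 41.9% (26.4 to 59.2), against 28.1%. In the reverse direction 31 of 61 REX1 peaks overlapped RNF12 WT (50.8%, 38.6 to 62.9), against 44.3%, and 25 of 61 overlapped the mutant (41.0%, 29.5 to 53.5), against 43.1%. Under the 50% rule 18 of 61 REX1 peaks overlapped RNF12 WT (29.5%, 19.6 to 41.9), against 22.8%, and 18 of 61 overlapped the mutant, against 17.9%, which lay below the same interval. With summits within 100 bp the shares were 34.4% for RNF12 WT (23.7 to 46.95), against 31.1%, and 19.7% for the mutant (11.6 to 31.3), against 24.0%. The share over protein-coding genes thus lay inside the interval for REX1 peaks under each rule, apart from the mutant under the 50% rule. Between the RNF12 lists 33 of 49 WT peaks overlapped the mutant (67.3%, 53.4 to 78.8), against 52.2%, and 24 of 31 mutant peaks overlapped WT (77.4%, 60.2 to 88.6), against 53.6%. Under the 50% rule these shares were 28.6% (17.8 to 42.4), against 24.7%, and 45.2% (29.2 to 62.2), against 30.9%. With summits within 100 bp they were 32.7% (21.2 to 46.6), against 31.7%, and 51.6% (34.8 to 68.0), against 39.5%. Under these stricter rules each interval held the share over protein-coding genes. The intervals cover counting error only, and the part of peak width in these shares was not tested.

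Merging overlapping peaks of the 3 lists gave 70 sites. All 3 lists held a peak at 18 of them (25.7%, 16.9 to 37.0), against 16.04% of sites at protein-coding genes. REX1 alone held 28 (40.0%, 29.3 to 51.7), against 26.5%. RNF12 WT alone held 8 (11.4%, 5.91 to 20.96), against 23.0%, and the mutant alone 5 (7.14%, 3.09 to 15.7), against 18.6%. Of the mutant-only sites 3 of 5 had a summit in a 36-base word found more than once in the genome, against 1 of 28 REX1-only and 0 of 8 RNF12 WT-only sites. Over all peaks at the heat-shock genes such words lay under 5 of 61 REX1, 10 of 49 RNF12 WT and 9 of 31 mutant summits. The part of repeated sequence in these counts was not tested. Within 1 kb of a TSS of any protein-coding gene, 17 of 30 sites at the heat-shock genes were shared by all 3 lists (56.7%, 39.2 to 72.6), against 37.8% of such sites at protein-coding genes. Farther away 1 of 40 was shared (2.5%, 0.443 to 12.9), against 6.07%, so the split by distance was seen at protein-coding genes as a whole. Of the REX1-only sites 19 of 28 lay farther than 1 kb (67.9%, 49.3 to 82.1), against 57.1% of all 70 sites here and 77.9% of REX1-only sites at protein-coding genes. Of all sites at protein-coding genes 68.6% lay that far, so REX1-only sites were farther in both sets.

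**Figure D5:**
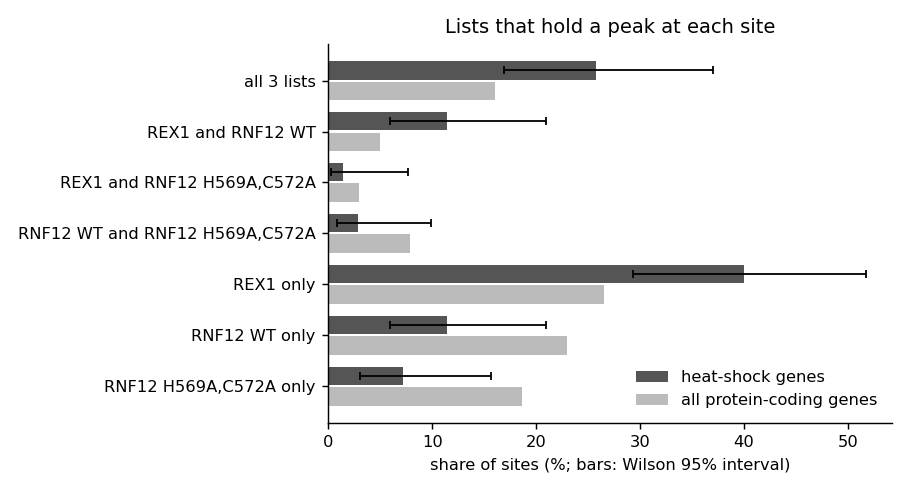
Share of sites (x axis, %) by the lists that hold a peak there (y axis), for the heat-shock genes (dark, with Wilson 95% intervals) and for all protein-coding genes (light). Sites of all 3 lists make up 25.7% against 16.04%, and sites of the mutant alone 7.14% against 18.6%.

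Heat-shock elements were searched as 3 alternating units, GAANNTTC followed by NNGAA or TTCNNGAA followed by NNTTC, from 500 bp before to 100 bp after each TSS. Exact strings of this kind were present in 3 of 10 heat-shock genes, Hspa8, Hsp90aa1 and Hsph1, and in 2.86% of protein-coding genes. Elements with a changed base were not searched, so a gene without an exact string may still hold one. The 4 places are printed because HSF1 binds such runs (GRCm38/mm10, with the element in capitals, on the plus strand at chr9:40801055-40801083 and chr9:40801213-40801241 for Hspa8 and on the minus strand at chr12:110696379-110696407 for Hsp90aa1 and chr5:149636280-149636308 for Hsph1).

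Hspa8: gcgagcgtGAAAGTTCCAGAAcgccgcgg
Hspa8: cggcacccTTCTGGAAGGTTCtaagacag
Hsp90aa1: gagggttcTTCCGGAAGGTTCcggaggct
Hsph1: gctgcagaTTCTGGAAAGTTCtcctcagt

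The Hsp90aa1 element lay inside the peaks of all 3 lists, 244 bp from the REX1, 75 bp from the RNF12 WT and 360 bp from the mutant summit. The first Hspa8 element lay in an RNF12 WT and a mutant peak, while the second Hspa8 element and the Hsph1 element lay in a REX1 peak alone. No summit at a heat-shock gene had such an element within 50 bp (0 of 61, 0 of 49 and 0 of 31, with upper Wilson bounds of 5.92%, 7.27% and 11.03%). At protein-coding genes the shares were 0.0692%, 0.0385% and 0.0327%. The shorter pair of units, chosen after the data were seen and contained in every longer element, was present in the same window of 9 of 10 heat-shock genes, all but Hsf1, and of 51.02% of protein-coding genes. Within 50 bp of the summit it occurred at 3 of 61 REX1 peaks (4.92%, 1.69 to 13.5), against 2.82% at protein-coding genes, at 0 of 49 RNF12 WT peaks, against 2.35%, and at 0 of 31 mutant peaks, against 2.14%.

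The REX1 string, ATGGC followed by G or T, then by A, C or G, and then by C, on either strand, was present around a TSS of 6 of 10 heat-shock genes and of 26.3% of protein-coding genes. The YY1 string AAGATGGC, which can overlap it, was present in 1 of 10, Hsf1, against 11.3%. Within 50 bp of the summit the REX1 string occurred at 7 of 61 REX1 peaks (11.5%, 5.67 to 21.8), against 10.95% over protein-coding genes. It occurred at 5 of 49 RNF12 WT peaks (10.2%, 4.44 to 21.8), against 4.09%, and at 3 of 31 mutant peaks (9.68%, 3.35 to 24.9), against 3.54%. The Hspa8 copy is shown because it lies beside the summit of the highest REX1 peak of the gene (plus strand, chr9:40800711-40800770, string in capitals).

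Hspa8: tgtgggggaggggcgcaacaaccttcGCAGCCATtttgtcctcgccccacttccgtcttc

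Of the other proteostasis genes listed, 57 were found in the annotation, among them further HSP70, HSP40, small heat-shock, BAG and HSF family members, HSP90 co-chaperones, chaperonin subunits and organelle chaperones. A peak was present at 56 of 57 for REX1, 57 for RNF12 WT and 56 for the mutant, against 78.4%, 79.2% and 80.7% of all protein-coding genes, and 53 had a promoter peak in all 3 lists, against 60.2%. Their median promoter percentiles were 81.9, 86.7 and 84.9. The top 10% of the list held the promoter peak of 12, 27 and 16 of the 57 genes, or 21.1%, 47.4% and 28.1%, to be read against the 18.7%, 23.3% and 14.4% of all genes. Both sets include genes without a promoter peak. The highest REX1 peaks were at Dnajc7 (HSP40 family, percentile 99.6), the chaperonin subunit gene Tcp1 (98.2) and Hspa4l (HSP110 family, 98.1). The highest RNF12 WT peak was shared by Hspd1 and Hspe1, the genes of the mitochondrial chaperonin HSP60 and its partner HSP10 (99.98), followed by the HSP90 co-chaperone gene Chordc1 (99.9). The highest mutant peaks were at the HSP90 co-chaperone gene Fkbp5 (98.6), at the chaperonin subunit gene Cct4 (98.0) and at Hspa1l (97.3), the last being the Hspa1a peak counted for both neighbours. Only Hspa13, an HSP70 family gene, lacked a peak in a list, having none for REX1 and the mutant and 1 for RNF12 WT (percentile 33.3).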

How the data were processed

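The study sequenced V5 ChIP libraries of RNF12 WT and RNF12 H569A,C572A, 1 library each. For REX1, also 1 library, it refers to ChIP-seq of an earlier study. The authors deposited a list of MACS2 narrow peaks for each of the 3. Per the labels and the study's methods, reads were trimmed with Trim Galore 0.6.7 and aligned with Bowtie2 2.5.0 to an mm10 genome with strain-specific SNPs masked. Alignments were split by allele with SNPsplit and merged with SAMtools 1.10, and peaks were called with MACS2 2.2.7.1 at default settings. How reads with several best places were treated is not given in the sources used here. The deposited columns used were the fold enrichment (a ratio over the local background), the −log10 q-value and the summit, while the deposited score and −log10 p-value columns were not used. Depth is unknown, since the lists hold no counts.

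Peaks were joined to GENCODE M21 genes, on the same build, by summit with a 5 kb flank, and percentiles were ranks of fold enrichment within a list. Named were all 10 heat-shock genes and, of the other proteostasis genes, the 3 with the highest peak in each list and those without a peak. Members, gene lists and motifs were chosen with earlier results of these data known. The interval of a share is a 95% Wilson interval, and that of a median rests on binomial order statistics over peaks or genes. Both cover counting error only. Sequences were read from the GRCm38 reference genome. Code (Python 3 with numpy, scipy, pandas, Biopython and matplotlib) was tested on simulated data. Alternatives were stricter q-values, other windows, overlap rules and rankings, and leaving out members.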

Additional observations from a re-analysis of the deposited data

How the results depend on the processing

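Among the top 20000 peaks by q-value, 10 of the 10 genes had a peak for REX1, 7 for RNF12 WT and 8 for the mutant, against 50.1%, 52.9% and 39.1% of protein-coding genes. The numbers for promoter peaks were the same, against 34.98%, 39.98% and 28.1%. With a −log10 q of at least 5, 9 had a peak for RNF12 WT, against 68.7%, and 10 had one for REX1 (71.1%) and for the mutant (78.5%). With the gene start as the only TSS, 9 had a promoter peak in either RNF12 list. Within 3 kb of a TSS all 10 had a peak in each list. With windows of 0 kb or 10 kb around the gene, or any base of a peak counted, all 10 genes had a peak in each list, and promoter peaks were not recounted there. Shares of protein-coding genes were not counted under these TSS and window rules, so these counts have no background. Leaving out members removed only those members from these counts. Of 150 values under these and the following alternatives, 116 stayed within 1.5 times of the count or within the interval of the share or median given above. With a −log10 q of at least 5, REX1 peaks fell to 37 and RNF12 WT peaks to 31, RNF12 WT exon summits to 16, and the median percentiles were 34.4 (REX1) and 38.7 (RNF12 WT). With the top 20000 peaks by q-value, 19 REX1, 18 RNF12 WT and 9 RNF12 H569A,C572A peaks were left, with 12, 10 and 4 exon summits. Median percentiles were then 23.4 (REX1) and 28.9 (RNF12 WT). Overlap was 50% for RNF12 WT with the mutant (18 peaks) and 100% for the mutant with REX1 (9 peaks). Medians, exon shares and overlap shares over protein-coding genes were not counted at either stricter cut. Without the 5 kb flank, 32 REX1 and 16 mutant peaks were left. Ranking by q-value gave medians of 60.0 (REX1) and 68.9 (RNF12 WT).

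When overlap had to cover 50% of both peaks, the shares were 29.5% for REX1 with RNF12 WT (22.8% over protein-coding genes) and 29.5% with the mutant (17.9%), 36.7% for RNF12 WT with REX1 (21.3%) and 28.6% with the mutant (24.7%), and 58.1% for the mutant with REX1 (20.9%) and 45.2% with RNF12 WT (30.9%). With summits within 100 bp they were 34.4% (31.1%) and 19.7% (24.0%), 42.9% (29.2%) and 32.7% (31.7%), and 41.9% (28.1%) and 51.6% (39.5%) in the same order. Over all annotated genes in place of protein-coding genes, 52.5%, 53.1% and 56.0% had a REX1, RNF12 WT or mutant peak. Leaving out Hspa1a and Hspa1b from the promoter medians and top 10% counts was chosen after seeing the data. Fewer peaks follow from the stricter thresholds themselves, and the cause of the other shifts was not tested. No paired analysis was possible because each list is 1 library. With no replicates and no known depth, differences between lists in peak number or width have no error estimate.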
